A study of Mus musculus with 13 samples.

Results

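Distal mouse chromosome 7 carries developmental genes and part of an imprinted gene cluster, and was examined for H3K27me3 in fibroblasts expressing a lysine-to-methionine mutant histone. The stretch was taken as chromosome 7 from 144500000 to 152200000 on build mm9, 7.7 Mb, with 8 named genes: Nkx6-2, Igf2, H19, Ascl2, Cdkn1c, Fgf3, Fgf4 and Fgf15. It was chosen by the measured peak calls, because the H3.3K27M list has peaks there and the H3.1K27M list has none. Of the 1192 peaks of the H3.3K27M list 19 lay in it, and of the 1053 peaks of the H3.1K27M list 0. Since the presence of peaks selected the stretch, the counts below describe it and carry no test.

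The cells were mouse embryonic fibroblasts transduced with lentivirus for stable expression of mutant histone H3, either H3.1K27M or H3.3K27M, in which lysine 27 is methionine. Each of these 2 groups had 2 samples precipitated with the same monoclonal antibody to H3K27me3 after formaldehyde fixation and micrococcal nuclease digestion, and the labels name 1 peak list for both samples of a group. Spread between replicates could therefore not be measured, and a group is 1 list throughout. Whether a list was called from 1 sample or from both was not given. The labels do not say whether cells were cloned or pooled, and the cell type cannot be checked against expression markers in peak lists. The series labels 13 samples in all; those for EZH2, FLAG with EZH2, K27R and the empty control cells were not used here, so no level without a K27M histone stands beside these counts.

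H3K27me3 is placed by Polycomb repressive complex PRC2 and marks silent developmental genes, often over CpG-rich promoters. K27M histones inhibit PRC2, and in cells that carry them the mark is largely retained at CpG-rich Polycomb targets while it is lost from much of the remaining genome. Within the imprinted cluster, Igf2 encodes a growth factor expressed from the paternal copy, and H19 is a long noncoding RNA expressed from the maternal copy next to it. Ascl2 encodes a basic helix-loop-helix factor of the placenta, and Cdkn1c encodes the cell cycle inhibitor p57. Both are expressed from the maternal copy. Nkx6-2 encodes a homeodomain factor of the nervous system. Fgf3, Fgf4 and Fgf15 are neighbouring genes for secreted fibroblast growth factors used in the embryo.

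The promoters of the named genes are shown first because CpG-rich sequence is the feature these Polycomb targets are known for. RefSeq promoters on GRCm38.p6, each from 250 bases before to 50 after a start site, were at hand for 5 of the 8 genes (Nkx6-2, Igf2, Ascl2, Fgf3 and Fgf4). H19, Cdkn1c and Fgf15 had no entry. The 250 bases before the start are printed in the direction of the gene, with every CG in capitals. All lie on chromosome 7, on the plus strand for Fgf3 and Fgf4 and on the minus strand for the others. Igf2 had 4 start sites, numbered from the most upstream, and starts 1 and 3 are printed because they held the fewest and the most CG. That choice was made after the counts were seen.
Nkx6-2: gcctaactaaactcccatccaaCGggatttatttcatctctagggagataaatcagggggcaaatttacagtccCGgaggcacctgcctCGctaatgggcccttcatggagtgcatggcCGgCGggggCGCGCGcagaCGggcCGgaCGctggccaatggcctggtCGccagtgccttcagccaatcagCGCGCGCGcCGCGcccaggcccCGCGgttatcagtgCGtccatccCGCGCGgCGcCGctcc
Igf2 start 1: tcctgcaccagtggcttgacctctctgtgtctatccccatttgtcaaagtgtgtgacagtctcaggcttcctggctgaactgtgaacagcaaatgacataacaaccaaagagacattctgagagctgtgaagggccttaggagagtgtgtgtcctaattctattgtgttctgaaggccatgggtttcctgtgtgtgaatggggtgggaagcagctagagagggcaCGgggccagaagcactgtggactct
Igf2 start 3: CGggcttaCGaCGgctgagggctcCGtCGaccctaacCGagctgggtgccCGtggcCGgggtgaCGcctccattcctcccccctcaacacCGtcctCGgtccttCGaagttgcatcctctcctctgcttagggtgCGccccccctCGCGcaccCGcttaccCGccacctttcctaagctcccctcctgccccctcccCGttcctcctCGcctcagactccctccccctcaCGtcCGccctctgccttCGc
Ascl2: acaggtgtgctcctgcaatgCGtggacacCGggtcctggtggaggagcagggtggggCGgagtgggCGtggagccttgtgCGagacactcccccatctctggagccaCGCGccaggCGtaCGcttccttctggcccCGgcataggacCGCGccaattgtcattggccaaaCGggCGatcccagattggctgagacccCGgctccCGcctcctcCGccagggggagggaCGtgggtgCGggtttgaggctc
Fgf3: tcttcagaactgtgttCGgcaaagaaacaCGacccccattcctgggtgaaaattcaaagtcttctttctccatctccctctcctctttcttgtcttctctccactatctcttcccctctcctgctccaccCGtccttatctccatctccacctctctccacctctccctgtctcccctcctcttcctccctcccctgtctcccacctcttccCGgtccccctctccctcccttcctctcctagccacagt
Fgf4: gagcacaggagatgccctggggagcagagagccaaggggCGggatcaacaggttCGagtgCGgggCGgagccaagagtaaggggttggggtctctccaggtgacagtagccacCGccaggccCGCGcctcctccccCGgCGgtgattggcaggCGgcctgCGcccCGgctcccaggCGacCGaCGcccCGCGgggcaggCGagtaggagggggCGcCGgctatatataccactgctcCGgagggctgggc

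In these windows CG was counted on 1 strand, since it reads the same on both. The Nkx6-2 sequence held 26, a number that 9.59% of all 32851 promoters of the table reached. Fgf4 held 21 (16.4% of promoters reached it), Igf2 start 3 held 22 (14.8%) and Ascl2 held 19 (19.7%). Fgf3 was low before its start, with 4 (62.2%). Igf2 start 1 held a single CG, which 92.1% of promoters reached. The sequences thus ranged from dense to nearly free of CG, also between start sites of 1 gene.

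Over the full 300 bases the CpG ratio, the number of CG divided by that expected from the C and G content, was 0.97 at Nkx6-2, 0.77 at Fgf4, 0.75 at Fgf3 and 0.68 at Ascl2. The 4 Igf2 start sites gave 0.10, 0.79, 0.90 and 0.25 in order from upstream. The median over all promoters was 0.38. Of the members' 8 promoters 6 were at or above that median, and each of the 5 genes had at least 1. In the imprinted cluster's other genes on a list of 12 (such as Th, Cd81, Phlda2 and Kcnq1ot1), 9 had entries, and 7 of their 11 promoters were at or above it, in 6 of the 9 genes. Of the other Fgf genes, 14 of the 20 symbols listed had entries. There 16 of 20 promoters were at or above the median, in 11 of the 14 genes. The share of all genes with at least 1 such promoter was not computed, so the counts of genes are a description. A gene with several start sites, such as Igf2 with 4, has more promoters that can count. Nkx6-1, the one listed relative of Nkx6-2 with an entry, had a ratio of 1.18. The promoter sequences are on another build than the peaks, so none of them was placed inside or outside a peak.

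**Figure D1:**
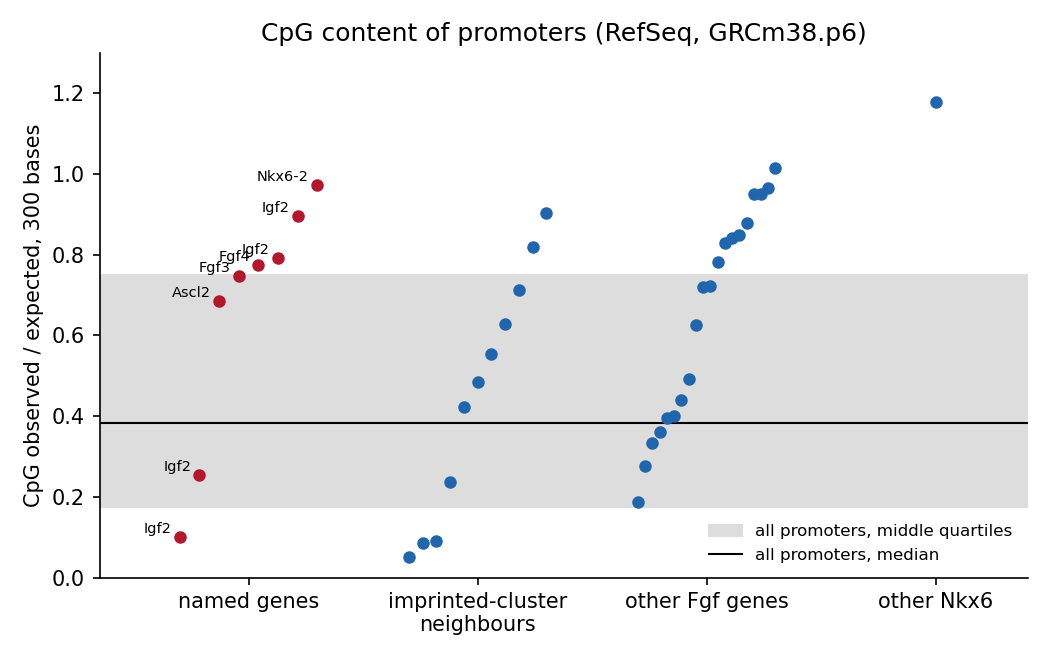
CpG ratio (observed over expected CG in 300 bases, vertical axis) of each RefSeq promoter, 1 point per start site, for the named genes, listed genes of the imprinted cluster, the other Fgf genes and Nkx6-1. The line is the median of all promoters (0.38) and the grey band their middle quartiles (0.18 to 0.75); 6 of the 8 points of the named genes lie above the line, and both points below it are Igf2 start sites.

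H3K27me3 peaks of the H3.3K27M list were found at each of the 5 places where the named genes lie, and no H3.1K27M peak was found at any. Because these genes were named with the peaks in view, a peak at every place is a description and no result about the genes. The share of other genes with a peak nearby was not computed. Genes were placed by approximate mm9 positions, rounded to between 10 and 100 kb, that came with the definition of the stretch. Igf2 and H19 share 1 position and so do the 3 Fgf genes. A peak was assigned to a place when its nearest edge was within 100 kb. By this rule 8 of the 19 peaks were assigned, with a summed width of 73.6 kb. The farthest assigned peak lay 80.4 kb from its place and the nearest unassigned one 139.4 kb. Since places are rounded, an assigned peak is near a gene and is not shown to cover its promoter. In the whole H3.3K27M list, 29.7% of peaks (354 of 1192) had no H3.1K27M peak overlapping by 1 bp; in the stretch this held for 19 of 19, which is what selected it.

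Nkx6-2, the homeodomain gene, had 1 H3.3K27M peak of 7.8 kb, from 146766201 to 146773999. The peak contains the gene's rounded position at 146.77 Mb. In the order of protein-coding genes on GRCm38.p6, Nkx6-2 stands between Inpp5a and Cfap46. The peaks on either side lay 388.6 kb before and 354.8 kb after it, so the Nkx6-2 peak stood alone. The H3.1K27M list had no peak within 100 kb.

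Igf2 and H19 had a single H3.3K27M peak between them. It was 9 kb wide, from 149843001 to 149851999, and began 43 kb after their common position at 149.8 Mb. H19 directly precedes Igf2 in gene order, and Ins2 follows it. The rounded position does not resolve which of the neighbours the peak lies at, so it is not given to either gene. No second H3.3K27M peak and no H3.1K27M peak lay within 100 kb, and the nearest other H3.3K27M peaks were 373 kb before and 297.4 kb after.

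Ascl2, the placental factor of the same cluster, had 1 H3.3K27M peak of 8.2 kb, from 150149401 to 150157599, which contains its rounded position at 150.15 Mb. The next peak, 8.6 kb wide from 150289401 to 150297999, lay 131.8 kb farther and was assigned to no gene. In gene order Th precedes Ascl2 and Tspan32 follows it. With a limit of 250 kb in place of 100 kb this second peak would also count as near Ascl2, and 9 peaks in all would be assigned. The H3.1K27M list had a peak at neither.

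Cdkn1c, the gene for p57, had the widest peak among the imprinted genes. It measured 11.6 kb, from 150622401 to 150633999, and ended 16 kb before the rounded position at 150.65 Mb. Kcnq1 precedes Cdkn1c in gene order and Slc22a18 follows it. The Cdkn1c peak was separated from its neighbours by 324.4 kb and 526.4 kb. With the limit of 100 kb, each place of the named imprinted genes thus had a single H3.3K27M peak, from 8.2 to 11.6 kb wide. The unassigned peak of 8.6 kb between the Ascl2 and Cdkn1c peaks lay 131.8 kb after the Ascl2 peak. With a limit of 250 kb it would also count as near Ascl2, so the single peak there depends on the limit. The H3.1K27M list had no peak at any of these.

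The Fgf3, Fgf4 and Fgf15 genes had several H3K27me3 peaks close together. The H3.3K27M list had 4 peaks there, from 152010801 to 152017199 (6.4 kb wide), from 152019801 to 152031999 (12.2 kb wide), from 152043001 to 152053799 (10.8 kb wide) and from 152080401 to 152087999 (7.6 kb wide). Distances of 2.6, 11 and 26.6 kb separated them. Together they covered 37 kb, or 47.9% of the 77.2 kb from the first to the last. No protein-coding gene lies between the 3 Fgf genes on GRCm38.p6, where Ano1 precedes Fgf3 and 6 protein-coding genes follow Fgf15 up to the end of the chromosome. The 4 peaks cannot be divided among the 3 genes with 1 rounded position. They were the last peaks of the chromosome and ended 436.6 kb from its end.

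The other 11 peaks lay at no named gene and were mostly narrower. They had a median width of 5.4 kb (3 to 19.8 kb), against 8.6 kb (6.4 to 12.2 kb) for the 8 assigned peaks, and the ranges overlap. The genes were named with the peaks in view, so this difference is a description. The widest peak of the stretch was among the unassigned ones, 19.8 kb from 147230601 to 147250399. It was followed after 14.8 kb by a peak of 3 kb, from 147265201 to 147268199, and preceded by another of 3 kb, from 147128801 to 147131799. These lay between the Nkx6-2 peak and the Igf2 and H19 peak, as did peaks starting at 148105001 (6.2 kb), 149132601 (8 kb) and 149466801 (3.2 kb). On GRCm38.p6, 117 protein-coding genes lie between Nkx6-2 and H19. Before Nkx6-2 there were peaks starting at 144512401 (4.6 kb), 146129801 (5.4 kb) and 146371001 (6.6 kb), and between Cdkn1c and the Fgf genes a peak starting at 151160401 (5 kb). None of the 11 was given a gene, because the gene table used here is on another build.

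**Figure D2:**
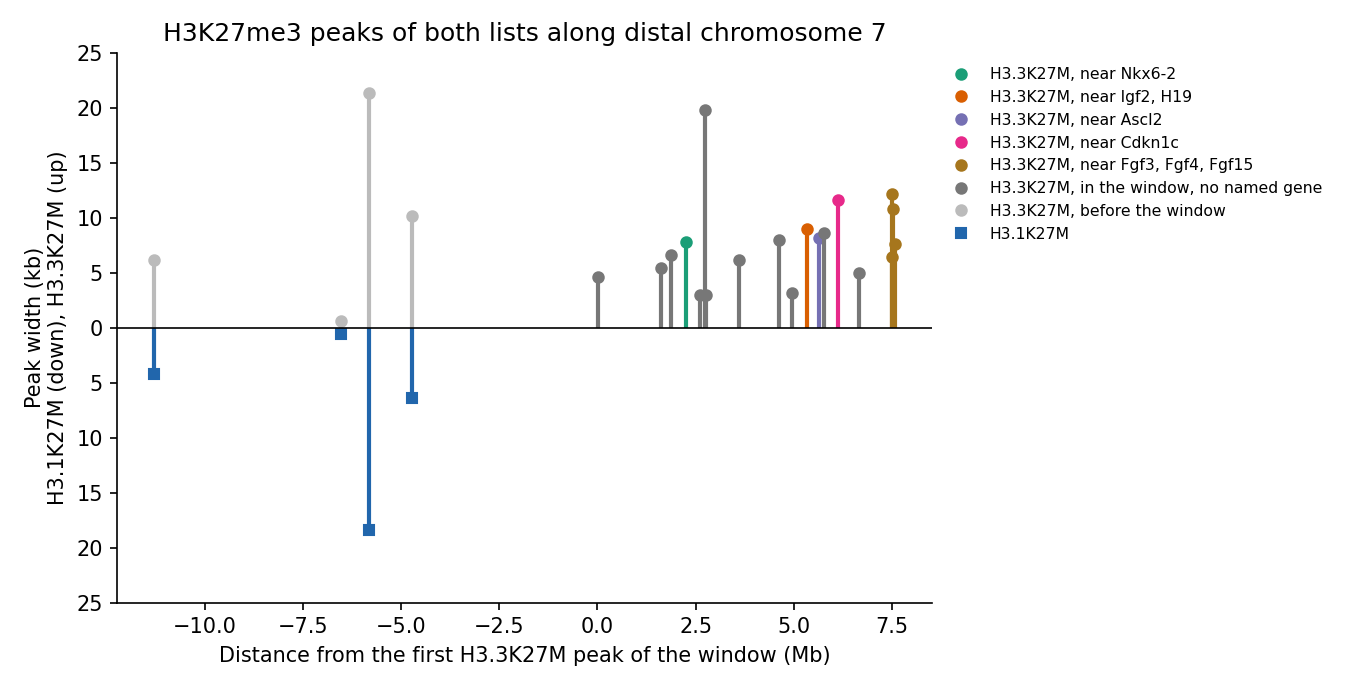
Width in kb of each H3K27me3 peak (H3.3K27M upward, H3.1K27M downward) against its distance in Mb from the first H3.3K27M peak of the stretch, on chromosome 7; colours mark peaks within 100 kb of a named gene. Before the stretch each H3.3K27M peak faces an H3.1K27M peak, while none of the 19 peaks from 0 to the right does.

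Peaks were unevenly spaced along the stretch. The distance from 1 peak to the next ranged from 2.6 kb to 1613 kb with a median of 325.3 kb, and 4 of the 18 distances were under 50 kb. Of these 4, 3 lay among the Fgf peaks. The 19 peaks summed to 147 kb, or 1.91% of the stretch.

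Just before this stretch both lists had peaks. In the 7.7 Mb before it each had 3, and every one had a partner. From 137977801 to 137978399 both lists had the same 0.6 kb peak. Next, a peak of 18.4 kb in H3.1K27M cells (138683801 to 138702199) faced one of 21.4 kb in H3.3K27M cells (138681801 to 138703199). The last pair was 6.4 kb in H3.1K27M cells (139787401 to 139793799) and 10.2 kb in H3.3K27M cells (139785401 to 139795599). Then neither list had a peak for 4.72 Mb, after which the H3.3K27M peaks resumed and the H3.1K27M peaks did not. Elsewhere on chromosome 7, 16 of 61 H3.3K27M peaks had no H3.1K27M partner (26.2%, exact Clopper-Pearson 95% interval 15.8 to 39.1%), and 10 of the 58 H3.1K27M peaks of the chromosome had no H3.3K27M partner (17.2%, 8.59 to 29.4%). These intervals cover counting error only.

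Running numbers in the deposited names show no skipped entry here, which cannot show whether peaks were lost before the names were given. The last H3.1K27M peak of chromosome 7 is number 927 and the first of chromosome 8 is number 928. The 19 peaks of the H3.3K27M list are numbered 1059 to 1077 with none unused. Elsewhere 26 numbers were unused in the H3.1K27M list and 55 in the H3.3K27M list. The lists hold neither signal nor input values, so the depth behind an absent H3.1K27M peak is unknown and its absence was not read as an amount of the mark.

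Among other stretches of equal length, 1 had as many H3.3K27M peaks, and it also had many H3.1K27M peaks. All chromosomes with peaks were divided into 331 stretches of 7.7 Mb, counted back from the chromosome end, or on chromosome 7 from the end of the stretch described here. The median of the other 330 was 2 peaks in each list. In 22 of these there were 10 or more H3.3K27M peaks, and they held 7 to 18 H3.1K27M peaks (median 12.5). A single one had at least 19, on chromosome 19 from 38242431 to 45942430, with 24 H3.3K27M and 18 H3.1K27M peaks. In the 84 others with no H3.1K27M peak the H3.3K27M list had at most 3 peaks. The distal chromosome 7 stretch was positioned on its peaks and the others were not.

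**Figure D3:**
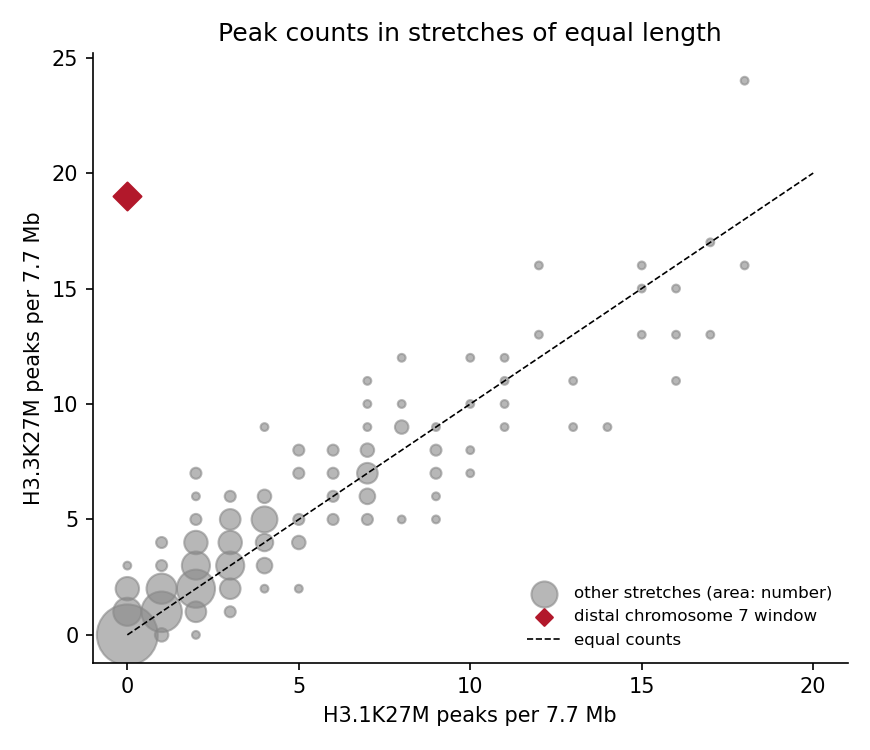
H3.3K27M peaks (vertical) against H3.1K27M peaks (horizontal) in 331 stretches of 7.7 Mb, with circle area proportional to the number of stretches and a dashed line at equal counts. The distal chromosome 7 stretch lies at 19 and 0, while the 22 others with 10 or more H3.3K27M peaks hold 7 to 18 H3.1K27M peaks.

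The absence of H3.1K27M peaks ran to the end of the chromosome. From the last H3.1K27M peak to the chromosome end at 152524553 there were 12.7 Mb. Such a length was not unusual by itself: among the 1073 stretches between neighbouring H3.1K27M peaks or between a peak and a chromosome end, 40 others were at least as long. Those 40 held 0 to 4 H3.3K27M peaks, with a median of 1. No other stretch of any length held more than 4, a number reached by 6, and no stretch free of H3.3K27M peaks held more than 4 H3.1K27M peaks. At the ends of the other 19 chromosomes the last H3.1K27M peak lay a median of 2.07 Mb from the end. It lay farther than 10 Mb on X alone, at 28.5 Mb. There 3 H3.3K27M peaks lay beyond it, the most on any chromosome but 7. Peaks beyond the last one of the other list were seen on 7 of these 19 chromosomes for H3.3K27M and on 3 for H3.1K27M, with 3 at most in either direction.

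**Figure D4:**
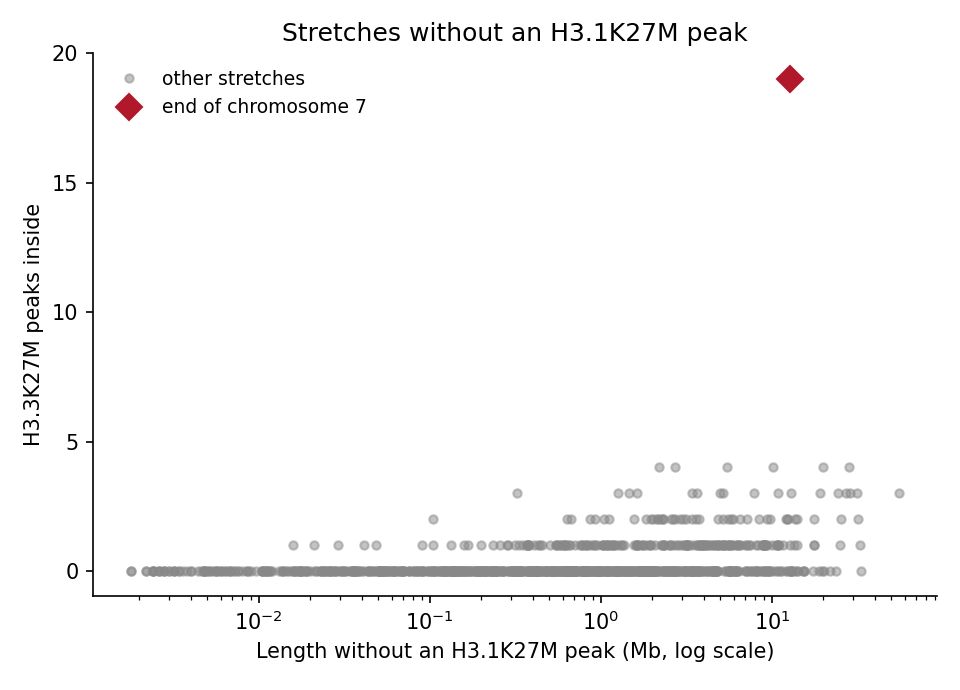
Number of H3.3K27M peaks inside each of the 1073 stretches without an H3.1K27M peak (vertical) against the length of the stretch in Mb (horizontal, log scale). The end of chromosome 7 holds 19 and the others 4 or fewer.

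The peaks of the stretch were wider than most other H3.3K27M peaks without a partner. Their median width was 7.6 kb (quartiles 5.2 and 8.8 kb). For the 335 unpartnered peaks elsewhere in the list the median was 4.8 kb (quartiles 3.6 and 7 kb), and 15 of the 19 were above that median. The 838 peaks with a partner had a median of 8.4 kb (quartiles 5.6 and 13.8 kb), and 6 of the 19 were above it, 3 of them at Cdkn1c or the Fgf genes. Elsewhere on chromosome 7 the medians were 6.4 kb with a partner (45 peaks) and 5.1 kb without (16 peaks). All these ranges overlap. The 19.8 kb peak ranked sixth in width among the 354 peaks without a partner.

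Wide H3.3K27M peaks elsewhere usually had an H3.1K27M partner. Outside the stretch 539 peaks were at least 7.6 kb wide, and 67 of them had no partner (12.4%, exact interval 9.77 to 15.5%). That cut is the median width of the stretch's own peaks, and the interval covers counting error only. Inside the stretch 10 peaks were that wide and 0 had a partner, which the choice of the stretch fixed in advance. The share outside is therefore given as background and was not tested against it. The 10 wide peaks were those at Nkx6-2, at Igf2 and H19, at Ascl2 and at Cdkn1c, 3 of the 4 at the Fgf genes, and 3 assigned to no gene.

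**Figure D5:**
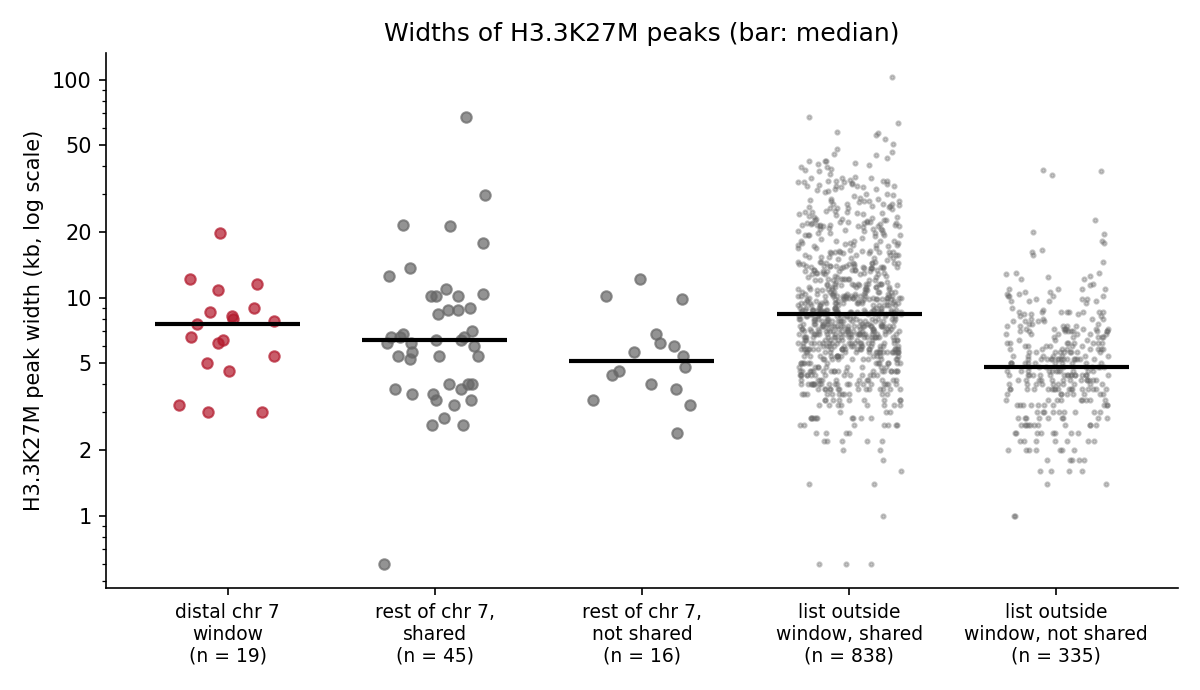
Width in kb (log scale) of H3.3K27M peaks in the distal chromosome 7 stretch, elsewhere on chromosome 7 and in the whole list outside the stretch (which includes the rest of chromosome 7), by whether an H3.1K27M peak overlaps them; points are peaks and bars medians. The median of the stretch, 7.6 kb, lies between those of the other peaks without (4.8 kb) and with (8.4 kb) a partner.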

How the data were processed

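H3K27me3 peak lists of 2 groups were used, 1 per group. Per the submitters' processing notes, the build was mm9, and Bowtie 1.0.0 and deepTools were among the tools. The peak caller, its threshold, any input and any pooling were not given in the sources used here. Files as deposited give each peak's position and width in bp and no other values, with starts on a 200 bp grid, so the depth is unknown. Positions are printed from 1. Peaks overlapping by at least 1 bp were partners. Chromosome lengths of mm9 came from GenomeInfoDb 1.38.1 (R 4.3.3). Gene order came from a RefSeq table of GRCm38.p6, whose coordinates served for that order only. Overlap functions were tested on simulated data. The named genes are the 8 of the definition, and all peaks of the stretch are described. The members and lists were chosen with earlier results of these data known. Computations used Python 3.11.15, numpy 2.4.6, pandas 2.3.3, scipy 1.17.1 and matplotlib 3.10.9.

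Alternatives covered the overlap rule, the window limits, the merging of close peaks, a minimum width, the distance to a gene, the chromosome ends and the promoter length. The comparison of equal stretches was added after the data were seen.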

Additional observations from a re-analysis of the deposited data

How the results depend on the processing

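Of 19 values under other settings 5 could not move, because a stretch without an H3.1K27M peak stays without one, and its peaks without a partner, under a stricter overlap, merging, a minimum width or limits set after the last H3.1K27M peak. Of the other 14, 10 stayed within 1.5 times the reported count or within its spread. The stretch held 19 H3.3K27M and 0 H3.1K27M peaks also with limits widened by 1 Mb. That widening met no further peak, because neither list had one in the 4.72 Mb before the first peak or after the last. Its values are among the 10 and are no check on the counts. Limits from the last H3.1K27M peak to the chromosome end gave 19 H3.3K27M peaks. Merging peaks under 5 kb apart gave 18. Keeping only peaks at or above their list's median width left 10 H3.3K27M peaks, and such a filter can only lower the count. The distance limit of 50 kb assigned 7 peaks and that of 250 kb 9. A reciprocal overlap of 50% raised the share of H3.3K27M peaks without a partner to 41.6% in the whole list and 42.6% on the rest of chromosome 7, since it counts small overlaps as none. With only stretches between 2 peaks, which leaves out the chromosome ends, the most H3.3K27M peaks in a stretch without an H3.1K27M peak was 4. Equal stretches laid from the chromosome start, added after the data were seen, gave 18 others with 10 or more H3.3K27M peaks, and again at least 7 H3.1K27M peaks in each. No paired analysis was possible because only 1 list stands for the 2 replicates of a group. For the same reason neither replicate can be left out in turn. The unknown depth limits every statement that a peak is absent.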
